A study of Mus musculus with 2 samples.

Results

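The cells described here are visceral endoderm cells of the mouse yolk sac at stage E8.75, ranked by how much of their RNA came from Spp2 and Apoa4. Visceral endoderm cells were taken as those with 500 or more genes, 1% to 10% mitochondrial counts, Ttr, Apob and Apom together at 0.3% or more of gene counts, the 7 Hba and Hbb globins under 3%, at most 1 Cdh5 count and at most 2 Cyp26a1 counts. Of 1817 deposited cells, 389 met these limits. In each of 3 tagged samples the cells were ranked by the share of Spp2 and Apoa4 among their gene counts, and divided at 2 limits into 3 groups of near-equal size. The 129 cells of highest share are called high cells, the 129 of lowest share low cells, and the 131 between them intermediate cells. High and low cells were compared by their counts summed per tagged sample. The groups were thus chosen by the measured Spp2 and Apoa4 counts, so both genes were left out of scaling and testing and are described only.

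All cells had 1 genotype, Ttr-Cre/+; R26lsl-rtTA-EGFP/+, in which the Ttr promoter drives Cre and Cre opens an rtTA-EGFP allele at Rosa26. The design therefore holds no treated group, and the comparison is between cells of the same tagged samples. Whether high and low cells came from the same yolk sacs is not known. Cells were tagged with CellPlex oligonucleotides and pooled for 10x capture, and counts of the samples labelled Ctrl1, Ctrl2 and Ctrl3 were deposited as separate matrices, called tagged samples 1, 2 and 3 here. Each tagged sample held cells with Xist and cells with Y-linked transcripts, so how many embryos lie behind a tag was not settled, and p-values measure only the spread between tagged samples.

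The visceral endoderm is the outer epithelium of the yolk sac. It takes up maternal protein and lipid through a microvillous surface and an endocytic system, degrades the cargo in lysosomes, and secretes lipoproteins and plasma proteins much as the liver later does. Apoa4 encodes an apolipoprotein of lipid-rich particles, and Spp2 encodes a secreted phosphoprotein. The ranking asks which other transcripts differ between cells rich and poor in both.

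The gate held 105, 148 and 136 cells in tagged samples 1, 2 and 3, of which 35, 49 and 45 were high cells and as many were low cells. The low-cell sums held between 1718526 and 2812370 counts, and the high-cell sums between 1711776 and 3390485. Median depth per cell was 43383, 51801 and 52178 counts in the low cells and 50025, 63161 and 55586 in the high cells. In each tagged sample the high cells were thus the deeper, and results with cells thinned to 20000 counts are given with the other settings. No cell barcode was present in more than 1 matrix.

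Cells on either side of the ranking limits had similar shares. In tagged sample 1 the lowest of the high cells held Spp2 and Apoa4 at 0.0859% of its gene counts, beside 0.0852% in the highest intermediate cell. The highest of the low cells held 0.0516%, beside 0.0531% in the lowest intermediate cell. The high cells began at 0.140% in tagged sample 2 and 0.147% in tagged sample 3, so the limits of tagged sample 1 were lower. As a description of what chose the cells, the CPM of Apoa4, its counts scaled by the total of each sum, were 200.2, 379 and 361 in the low cells and 818, 1195 and 1486 in the high cells. Those of Spp2 were 92.5, 261 and 225 against 418, 671 and 597.

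The label was set beside markers of visceral endoderm and of other yolk sac cells. The 15 visceral endoderm markers were detected in both groups and summed to 24937, 35382 and 32545 CPM in the low cells and 40806, 46375 and 40757 in the high cells, against 7962, 8658 and 3565 in cells outside the gate. The markers of erythroid cells summed to 3344, 4098 and 2259 in the low cells and 1944, 1426 and 2103 in the high cells, against 22423, 46711 and 58847 outside. Extraembryonic mesoderm markers summed to 260, 128 and 118 in the low cells and 88.3, 71.8 and 73.0 in the high cells. Both of these sums were higher in the low than in the high cells of every tagged sample. Trophoblast markers went the other way, with sums of 840.5, 1364 and 1400 in the low cells and 1239, 1585 and 1642 in the high cells. No erythroid or extraembryonic mesoderm marker was at 0 in all 6 sums. Some of these markers were set by the gate, which requires Ttr, Apob and Apom and caps the globins. The visceral endoderm and erythroid sums thus differ from those outside the gate partly by selection, and are no independent check of the label.

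Cells with few visceral endoderm transcripts were mostly low cells. Ttr, Apob and Apom, which the gate requires at 0.3% or more, had a median share of 0.869%, 1.19% and 1.23% of gene counts in the low cells and 1.63%, 1.60% and 1.49% in the high cells. Cells under 1% numbered 20 of 35, 10 of 49 and 13 of 45 in the low cells, and 1, 2 and 3 in the high cells. The lowest of these cells stood at 0.349%, 0.323% and 0.302%, just inside the gate. The counts of genes, the main lists and the lower genes below are also given under a stricter gate, which was chosen after seeing the data: Ttr, Apob and Apom at 1% or more, globins under 0.5%, no doublet calls by Scrublet, and cells ranked anew.

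**Figure D1:**
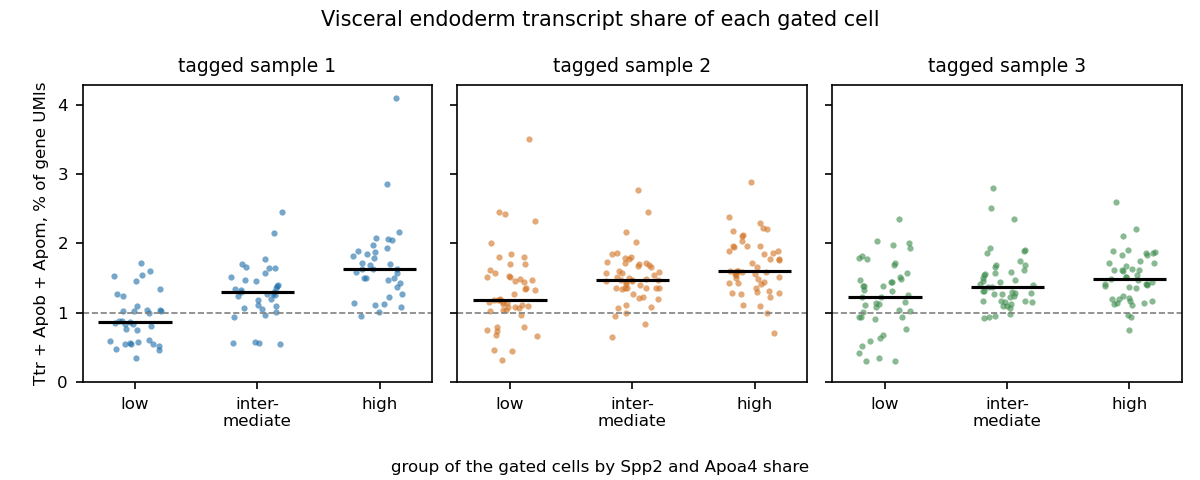
Share of Ttr, Apob and Apom among gene counts (y axis, percent) of each of the 389 gated cells, by group of the Spp2 and Apoa4 ranking (x axis) in the 3 tagged samples; black bars are medians and the dashed line marks 1%. Most cells under 1% are low cells, 20 of 35 in tagged sample 1.

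At an adjusted p (Benjamini-Hochberg) under 0.05 in edgeR's quasi-likelihood test of the 3 high-cell against the 3 low-cell sums, 38 genes were higher in high cells (0.432% of 8806 tested) and 33 were lower (0.375%). Of the 38 higher genes, 5 were on the list of apolipoproteins and lipoprotein assembly, 4 on that of glutathione enzymes, 3 on that of lysosomal genes, 3 on that of the nuclear respiratory chain and 2 on that of plasma proteins, and others were on none of these lists. The 5 include the gate gene Apom. The lower genes included actin-binding proteins, replication factors, a linker histone and genes more abundant in other yolk sac cells. Log2 differences, high minus low cells, ran from 0.38 to 1.64 among the higher genes with a median of 0.64, and from -3.21 to -0.49 among the lower genes with a median of -1.57. Some of these genes passed the low-count filter only through the group where they were high, so the ranges and medians are a description only. The high-cell and low-cell sums did not overlap for any of the 38 or the 33. These genes were called from the same sums and overlap was not counted over all genes, so this is a description only. The mean of the intermediate cells lay between the other means for 38 of 38 higher and 32 of 33 lower genes, likewise without a share over all genes.

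These counts depended on the fit and on single tagged samples. High and low cells come in pairs from the same tagged sample, and a fit with the tagged sample as a replicate block called 432 genes higher (4.91%) and 270 lower (3.07%), including all 38 and all 33. Without the block, no gene was higher and none lower when tagged sample 2 was left out (393 and 339 at an unadjusted p under 0.05), and 0 and 1 when tagged sample 3 was (312 and 288); leaving out tagged sample 1 gave 189 and 108. In the paired fit the counts were 466 and 322, 341 and 222, and 114 and 82 without tagged samples 1, 2 and 3. Under the stricter gate with the block, 187 genes were higher (2.24% of 8355) and 65 lower (0.778%), while without the block the stricter gate called 4 and 1. The shares of all genes given for each fit are to be read beside every count of list members below.

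The called genes were then followed under that gate. Of the 38 higher genes, 37 were still called higher with the block and all 38 kept their direction, with a median log2 difference of 0.45. Of the 33 lower genes, 18 passed the low-count filter there and kept their direction, with a median log2 difference of -0.51. Of these, 5 were called: Pclaf, Golga3, H1f5, Marcksl1 and Tipin. Relative to cells outside the gate, 36 of the 38 higher genes were lower outside than in either group, and 31 of the 33 lower genes were higher outside than in either. These counts are without a share over all genes, and the gate itself chose cells by Ttr, Apob, Apom and globin counts, so they are a description only. Low cells under 1% Ttr, Apob and Apom held 53.3%, 17.4% and 28.8% of the low cells' counts, and 71.8%, 32.9% and 52.1% of their counts of the 33 lower genes.

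**Figure D2:**
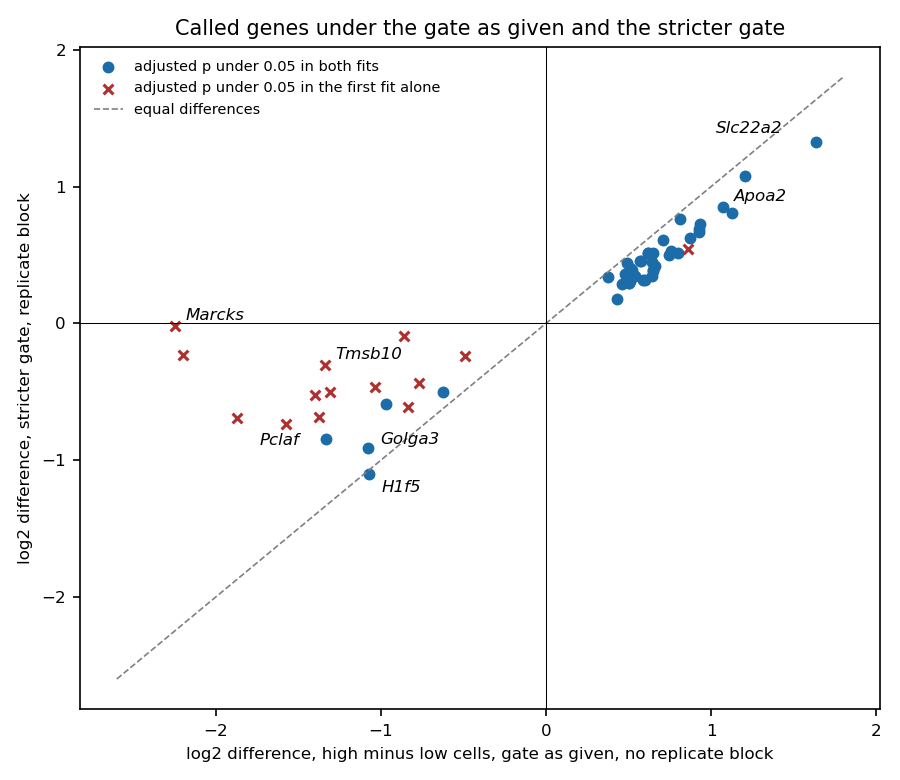
Log2 differences (high minus low cells) of the called genes that were tested in both fits: the gate as given without a replicate block (x axis) and the stricter gate with the block (y axis); circles passed an adjusted p of 0.05 in both, crosses in the first alone, and the dashed line marks equal differences. The 37 higher genes called in both lie to the right, and among the lower genes Marcks moves from -2.25 to -0.02 while H1f5 stays at -1.07 and -1.10.

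Promoter windows are shown for Apoa2 and Gsn, which lead the higher named genes, and for Pclaf and Golga3, the lower named genes of largest difference that stayed called under the stricter gate. The windows are from RefSeq (GRCm38.p6), 250 bases before to 50 bases after the first listed start site of each gene, read 5′ to 3′ on the gene's strand, which is the plus strand for all 4: chr1:171224804-171225103, chr2:35256109-35256408, chr9:65890073-65890372 and chr5:110176607-110176906. Capitals mark matches to 6 motifs searched on both strands: an HNF4A type direct repeat with the letters CAAAGTCCA, an HNF1 site core with GTTAAT, a forkhead protein site with TGTTTAC, a site of the GATA family with AGATAA, a hypoxia element core with ACGTG, and a promoter box with TATAAA.
Apoa2: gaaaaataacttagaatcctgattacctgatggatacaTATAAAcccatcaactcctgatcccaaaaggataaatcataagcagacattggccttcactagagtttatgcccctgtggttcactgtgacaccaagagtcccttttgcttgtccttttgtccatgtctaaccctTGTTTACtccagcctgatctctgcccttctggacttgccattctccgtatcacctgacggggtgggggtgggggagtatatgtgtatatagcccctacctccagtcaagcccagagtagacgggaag
Gsn: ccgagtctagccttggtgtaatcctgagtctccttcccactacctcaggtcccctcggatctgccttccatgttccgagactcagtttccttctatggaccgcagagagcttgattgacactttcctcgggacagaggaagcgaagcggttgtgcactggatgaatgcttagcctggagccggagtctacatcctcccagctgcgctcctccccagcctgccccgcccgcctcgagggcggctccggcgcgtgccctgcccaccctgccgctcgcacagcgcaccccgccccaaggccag
Pclaf: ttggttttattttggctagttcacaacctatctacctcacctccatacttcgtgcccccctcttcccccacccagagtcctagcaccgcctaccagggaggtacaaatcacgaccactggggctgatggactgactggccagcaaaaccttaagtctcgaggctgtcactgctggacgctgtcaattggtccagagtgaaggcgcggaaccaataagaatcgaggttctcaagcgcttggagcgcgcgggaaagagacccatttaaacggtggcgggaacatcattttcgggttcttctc
Golga3: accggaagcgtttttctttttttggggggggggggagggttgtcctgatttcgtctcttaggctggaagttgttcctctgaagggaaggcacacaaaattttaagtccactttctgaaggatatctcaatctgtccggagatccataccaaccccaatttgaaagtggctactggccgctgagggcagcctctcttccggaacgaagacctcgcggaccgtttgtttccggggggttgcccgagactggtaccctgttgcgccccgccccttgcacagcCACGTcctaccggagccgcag
The Apoa2 window holds a forkhead match that begins at position -77 from the start site and a TATAAA match at position -212. Golga3 has a match to ACGTG on the minus strand at position 30, and the other windows printed have no match. Over all 27025 windows, 3.55% hold TGTTTAC, 14.2% TATAAA, 19.7% ACGTG, 11.4% AGATAA, 7.20% GTTAAT and 0.477% CAAAGTCCA. Among the 10 higher named genes with a window, 3 held AGATAA, 2 GTTAAT, 2 ACGTG, 1 TGTTTAC and 1 TATAAA. Among the 7 lower named genes with one, 2 held ACGTG and 1 TATAAA. These matches describe letters in the windows and are not shown to be binding sites.

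Apolipoprotein transcripts were higher in the high cells. Apoa2 (ENSMUSG00000005681), an apolipoprotein of high-density lipoprotein on chromosome 1 from 171225054 to 171226379 (GRCm38), had the largest difference of the higher named genes at 50 CPM or more: 680, 1347 and 985 CPM in the low cells of tagged samples 1, 2 and 3, 939, 2228 and 1603 in the intermediate cells, and 1442, 2631 and 2069 in the high cells. Each tagged sample rose from low to intermediate to high cells, and the lowest high-cell value lay above the highest low-cell value. The log2 difference was 1.07 (SE 0.23), with an edgeR adjusted p of 0.0457. Under the stricter gate with the block it was 0.85 (edgeR adjusted p = 4.83e-23). Without the block the stricter gate gave 0.86 with an edgeR adjusted p of 0.0524, so Apoa2 was not called there. DESeq2 on the sums of the gate as given had an adjusted p of 0.234. Ranking the cells by Spp2 alone or Apoa4 alone gave edgeR adjusted p-values of 0.286 and 0.407 for Apoa2 without the block.

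Apoe, which mediates uptake of lipoproteins by their receptors, was at 4785, 5006 and 4994 CPM in the low cells and 6682, 7167 and 6416 in the high cells. Here the samples agreed within each group more closely than for Apoa2, and the groups lay apart. Its log2 difference was 0.50 (SE 0.06, edgeR adjusted p = 0.00445). For Apoa1, the main protein of high-density lipoprotein, the values were 4699, 6278 and 5402 against 7857, 8963 and 7034, a log2 difference of 0.59 (SE 0.11, edgeR adjusted p = 0.0240). Creb3l3, a membrane-bound transcription factor of liver and intestine known for its control of apolipoprotein genes, was at 104, 115 and 91.3 against 147, 165 and 158 (log2 difference 0.65, SE 0.11, edgeR adjusted p = 0.0236). All 3 genes rose from low to intermediate to high cells in each tagged sample.

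Of the 25 genes on the list of apolipoproteins and lipoprotein assembly, 22 were tested and all 22 differences were above 0, with a median of 0.44 against -0.01 over all genes. Apoa1, Apoa2, Apoe, Apom and Creb3l3 passed the unblocked test, and 12 genes passed with the replicate block. Both counts include the gate gene Apom, and the 12 also include Apob. No gene of this list was called lower in either fit. Under the stricter gate with the block 8 were higher and the median was 0.24. Mttp, which loads lipid onto apolipoprotein B, had a log2 difference of 0.06 (edgeR adjusted p = 0.906). Apob, a gate gene, had 0.44 (edgeR adjusted p = 0.0576; with the block, 0.000340).

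The neighbours of Apoa4 on chromosome 9 were read on their own. Apoa1 passed the test, and Apoc3, an inhibitor of lipoprotein lipase, had 119, 194 and 150 CPM in the low cells and 192, 223 and 160 in the high cells. Those ranges overlap, and its log2 difference of 0.35 had an edgeR adjusted p of 0.393, or 0.0170 with the block. The difference was 0.06 under the stricter gate with the block (edgeR adjusted p = 0.865). Apoa5, known for lowering plasma triglyceride, was at a mean of 13.5 against 19.5 (SD 6.67 and 0.418, n = 3), with an edgeR adjusted p of 0.492 (0.198 with the block). Across the 7 genes of the cluster and its flanks the median log2 difference was 0.06.

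Among secreted plasma proteins, Fgb and Serpinc1 were higher. Fgb, the beta chain of fibrinogen, was at 278, 322 and 292 CPM in the low cells, 328, 393 and 409 in the intermediate cells and 504, 468 and 486 in the high cells. The ordering held in every tagged sample, and the log2 difference of 0.75 (SE 0.09) had an edgeR adjusted p of 0.00445. Serpinc1, which encodes antithrombin, was at 27.4, 23.1 and 15.2 against 43.3, 34.3 and 42.8 (log2 difference 0.92, SE 0.20, edgeR adjusted p = 0.0484). The fibrinogen gamma chain gene Fgg, chosen after its values were seen, was at 43.1, 96.4 and 106 against 151, 173 and 166. Its log2 difference of 1.01 had an edgeR adjusted p of 0.0520 without and 5.34e-06 with the block.

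Afp, the fetal counterpart of albumin, was likewise chosen after its values were seen. Its low-cell values of 676, 1890 and 1963 CPM show tagged sample 1 far below the others, and its high-cell values of 2250, 3669 and 3674 repeat that order. Within each tagged sample Afp was higher in the high cells. The log2 difference of 1.13 had an edgeR adjusted p of 0.110 without the block and 3.38e-09 with it. For Trf, the iron carrier transferrin, the values were 138, 327 and 346 against 325, 526 and 541, so the groups overlapped while each tagged sample was higher in its high cells (log2 difference 0.82, edgeR adjusted p = 0.204, with the block 1.52e-07).

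Of the 49 plasma protein genes listed, 19 passed the low-count filter, and 10 had no count in any of the 6 sums. The 19 tested genes had differences above 0, with a median of 0.64. Only Fgb and Serpinc1 passed the unblocked test, whereas 12 passed with the block and 9 under the stricter gate with the block, none of them lower. Rbp4 and Ttr, which carry retinol together in plasma, had log2 differences of 0.43 (edgeR adjusted p = 0.156, with the block 5.39e-07) and 0.54 (0.0850, with the block 2.58e-06). Ttr is a gate gene, so its lower range was cut by the choice of cells. On the retinoid list 9 of 10 tested genes lay above 0, none passed without the block, and 5 were higher with it.

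**Figure D3:**
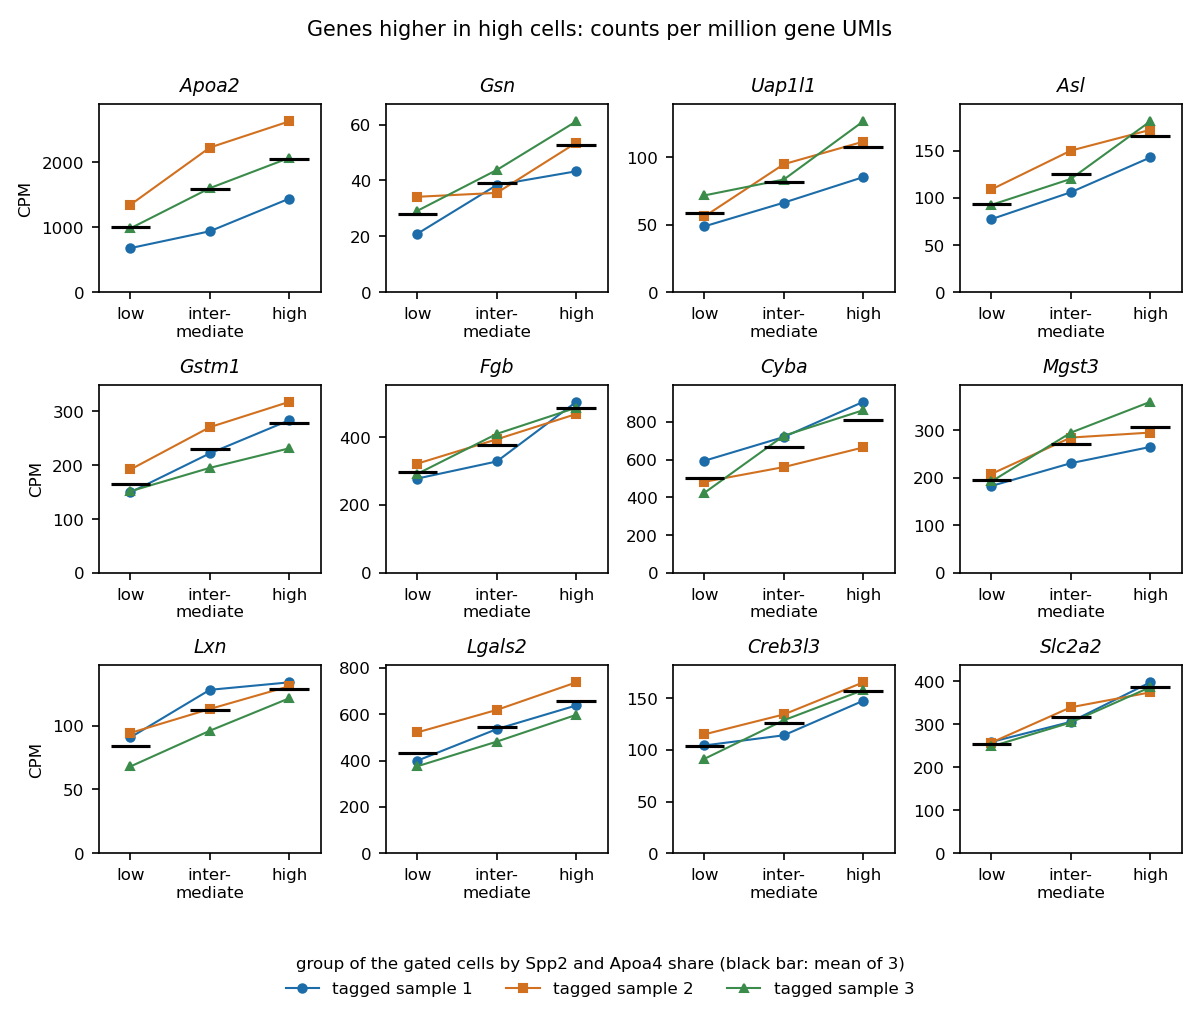
CPM (y axis, from 0) of the 12 higher named genes in the low, intermediate and high cells of the Spp2 and Apoa4 ranking (x axis); each line is 1 tagged sample and black bars are means of 3. The rule that named these genes required a rise from low to high cells in every tagged sample. Apoa2 goes from 680, 1347 and 985 to 1442, 2631 and 2069.

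Enzymes of glutathione and amino acid metabolism were among the higher named genes. Gstm1, a cytosolic glutathione transferase, was at 150, 192 and 152 CPM in the low cells and 284, 318 and 232 in the high cells (log2 difference 0.80, SE 0.13, edgeR adjusted p = 0.0224). It belongs to a family of similar paralogs among which reads may be split. Mgst3, a membrane-bound glutathione transferase, was at 183, 208 and 192 against 265, 295 and 360 (0.71, SE 0.12, edgeR adjusted p = 0.0228). Unlike most higher genes, Mgst3 was also abundant outside the gate, at 151, 251 and 271.

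Asl, the urea cycle enzyme argininosuccinate lyase, was at 77.4, 109 and 92.5 CPM against 143, 172 and 181. The groups lay well apart, with a log2 difference of 0.87 (SE 0.14, edgeR adjusted p = 0.0215). Ass1, which makes the substrate of Asl and was picked after its values were seen, was at 107, 224 and 211 against 177, 312 and 357. Its difference of 0.69 had an edgeR adjusted p of 0.270, and 1.20e-06 with the block, and tagged sample 1 was low in both groups. A list of 15 glutathione transferases and peroxidases, put together after the calls were seen, had 4 genes higher (Gstm1, Mgst3, Gpx3 and Gstt2), none lower, and a median of 0.41. With the block 6 were higher, and under the stricter gate 4.

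Sugar transport was represented by Slc2a2, the low-affinity glucose transporter of liver and gut epithelium. Its low-cell values of 259, 258 and 248 CPM and high-cell values of 398, 374 and 386 varied little between tagged samples. The log2 difference was 0.65 (SE 0.08) with an edgeR adjusted p of 0.00521. Slc2a3, the high-affinity glucose transporter named as a marker of this ranking, was at 2597, 2864 and 2934 against 3364, 3037 and 2757. It was higher in tagged samples 1 and 2 and lower in tagged sample 3, with a log2 difference of 0.17 (SE 0.08, edgeR adjusted p = 0.351, with the block 0.0670). Under the stricter gate its sign turned, to -0.02 without and -0.03 with the block.

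S100g encodes the calcium-binding protein calbindin-D9k and was also named as a marker. Its low-cell values were 1545, 2984 and 1645 CPM, its intermediate values 2427, 4175 and 2265, and its high-cell values 2860, 4842 and 2442. Tagged sample 2 was highest in every group, so the groups overlapped, although each tagged sample was higher in its high cells. The log2 difference of 0.76 (SE 0.25) had an edgeR adjusted p of 0.208 without the block and 3.88e-10 with it, and 0.37 under the stricter gate with the block (adjusted p = 2.30e-08). Nrk, a protein kinase gene known from the placenta, was at 324, 618 and 536 against 608, 610 and 693. It was higher in tagged samples 1 and 3 and slightly lower in tagged sample 2, at 0.41 (SE 0.18, edgeR adjusted p = 0.334, with the block 0.00501). The difference of Nrk was 0.21 under the stricter gate with the block (edgeR adjusted p = 0.0717). Without tagged sample 3 the blocked fit did not call Nrk either.

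Among 36 tested solute carriers of glucose, amino acids and ions, Slc2a2 was higher and Slc16a3, a lactate transporter, was lower without the block. With it 5 were higher and 2 lower. Under the stricter gate with it 2 of 34 were higher and none lower in edgeR, with a median of 0.06. Over all genes 0.432% were higher and 0.375% lower without the block, and 4.91% and 3.07% with it. The stricter gate with the block had 2.24% and 0.778%. Slc16a3 was at 13.4, 11.4 and 15.6 CPM in the low cells, 2.92, 4.43 and 3.26 in the high cells, and 82.8, 61.0 and 80.1 in cells outside the gate. It did not pass the low-count filter of the stricter gate. The organic cation transporter gene Slc22a2, outside these lists and under 50 CPM, had the largest difference of all higher genes, at 2.91, 7.12 and 5.49 against 14.6, 20.4 and 13.5 (log2 difference 1.64, edgeR adjusted p = 0.0281). It was chosen after its values were seen. Slc22a2 had 5, 20 and 13 counts in the low cells and 25, 69 and 33 in the high cells. It passed the low-count filter through its high-cell counts, so the size of its difference is a description only. Of 16 tested glycolysis genes none passed without the block, 2 were higher and 1 lower with it, 2 and 0 under the stricter gate with it, and the median was 0.04. The shares of all genes given above apply to these counts as well. The hypoxia list, also of 16 tested genes, had a median of 0.01.

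Genes of uptake and degradation differed unevenly. Amn, the membrane anchor of the cubilin receptor complex, was at 526, 535 and 547 CPM in the low cells and 701, 763 and 757 in the high cells (log2 difference 0.52, SE 0.08, edgeR adjusted p = 0.0196). Its partner Cubn had a difference of 0.10 (edgeR adjusted p = 0.715) and the scavenger receptor Lrp2 one of 0.12 (0.819). Dab2, an adaptor of these receptors, was at 1429, 1330 and 1254 against 1224, 1200 and 954. Lower in every tagged sample and without overlap, Dab2 had a log2 difference of -0.20, an edgeR adjusted p of 0.353, and 0.0121 with the block. Under the stricter gate with the block it fell by 0.34 on the log2 scale (edgeR adjusted p = 3.27e-06), so Amn and Dab2 were called in opposite directions in that fit.

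Of the lysosomal genes, 3 were higher. Ctsb, a cysteine protease of the lysosome, was at 769, 850 and 799 CPM against 1040, 1073 and 1149 (log2 difference 0.48, SE 0.08, edgeR adjusted p = 0.0224). The membrane protein gene Cd63 was at 682, 771 and 674 against 878, 1105 and 1080 (0.58, SE 0.10, edgeR adjusted p = 0.0236). Ctsl, another cysteine protease, was also called. Of the 24 tested genes of this list 23 lay above 0, with a median of 0.26. With the block 12 were higher and none lower, and under the stricter gate with the block 6 were higher.

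At the apical surface, Cdhr2, a protocadherin of the microvilli, was at 22.1, 21.3 and 25.4 CPM in the low cells and 36.8, 44.6 and 34.2 in the high cells (log2 difference 0.81, SE 0.17, edgeR adjusted p = 0.0450). It alone passed among 21 tested brush border and junction genes, beside 0.432% of all genes higher. With the block 5 passed, all higher, beside 4.91% of all genes. Under the stricter gate with the block 3 were higher, beside 2.24% of all genes, and the median was 0.09. Lgals2, a galectin, was at 400, 522 and 376 against 638, 738 and 598 (0.65, SE 0.13, edgeR adjusted p = 0.0332). Gsn, an actin-severing protein gene, was at 21.0, 34.2 and 29.2 against 43.3, 53.5 and 61.1 (0.94, SE 0.19, edgeR adjusted p = 0.0450). Neither overlapped between the groups.

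The other higher named genes were Cyba, Lxn and Uap1l1. Cyba, a subunit of the NADPH oxidase, was at 594, 482 and 424 CPM against 906, 664 and 862, with the smallest gap in tagged sample 2. Lxn, a carboxypeptidase inhibitor gene, was at 90.8, 94.3 and 68.0 against 134, 131 and 121. For Uap1l1, named for its likeness to a nucleotide-sugar enzyme, the values were 48.9, 56.2 and 71.8 against 85.4, 112 and 127. Their log2 differences were 0.75, 0.66 and 0.92, with edgeR adjusted p-values of 0.0215, 0.0332 and 0.0264.

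Nuclear genes of the respiratory chain had small differences of 1 direction. On a list of 85 nuclear genes of the respiratory chain, put together after the calls were seen, 82 lay above 0 with a median of 0.23. Cox4i1, Cox6a1 and Ndufb6 passed the unblocked test, 46 genes were higher with the block and 24 under the stricter gate with the block, and none was lower in any of the 3 fits. Cox4i1, a subunit of cytochrome c oxidase, was at 1303, 1332 and 1267 CPM against 1490, 1673 and 1726. By comparison, 13 mitochondrially encoded genes had a median of 0.15, and 90 cytosolic ribosomal protein genes a median of -0.04 with none called without the block.

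**Figure D4:**
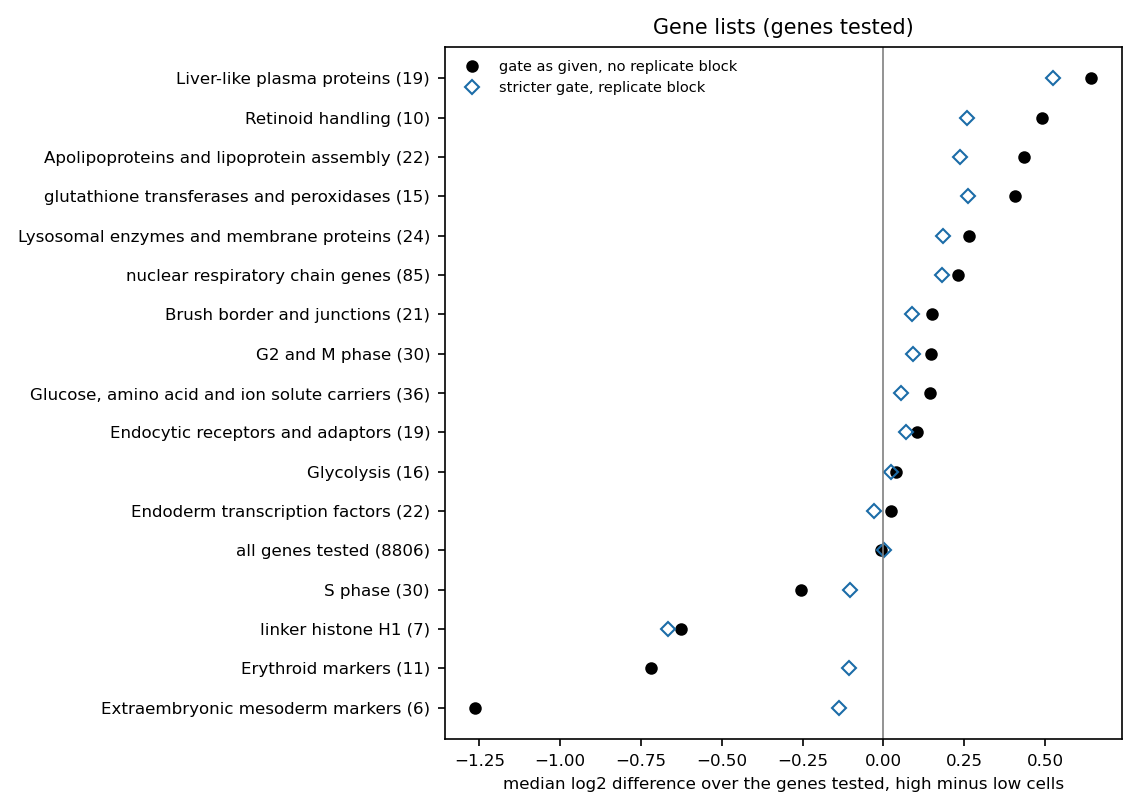
Median log2 difference (x axis, high minus low cells) of the tested genes of 16 lists and of all genes (y axis, genes tested in brackets), with the gate as given and no replicate block (black circles) and with the stricter gate and the block (blue diamonds). Plasma proteins stand at 0.64 and 0.53, and extraembryonic mesoderm markers at -1.26 and -0.14.

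Among the lower genes, a linker histone kept its difference under the stricter gate. H1f5 (ENSMUSG00000058773), a linker histone gene on chromosome 13 from 21779883 to 21780625, was at 634, 532 and 514 CPM in the low cells, 530, 409 and 371 in the intermediate cells and 378, 205 and 200 in the high cells. It fell from low to intermediate to high cells in every tagged sample, with a log2 difference of -1.07 (SE 0.18) and an edgeR adjusted p of 0.0224. Under the stricter gate with the block the difference was -1.10 (edgeR adjusted p = 3.71e-20). Low cells under 1% Ttr, Apob and Apom held 52.5%, 19.8% and 31.8% of its low-cell counts, close to their 53.3%, 17.4% and 28.8% of all counts. In the median cell H1f5 was at 467, 476 and 399 CPM in the low cells and 211, 93.9 and 101 in the high cells.

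Its relatives on chromosome 13 were examined after the H1f5 values were seen. H1f1 was at 76.2, 61.6 and 43.5 CPM against 42.7, 25.1 and 14.7 (log2 difference -1.13, edgeR adjusted p = 0.0853, with the block 1.01e-05). H1f4 was at 252, 213 and 158 against 182, 123 and 84.4 (-0.65, edgeR adjusted p = 0.203, with the block 9.55e-06). For H1f2 and H1f3 the differences were -0.63 and -0.57 (edgeR adjusted p = 0.204 and 0.321, with the block 0.0101 and 0.00829). Under the stricter gate with the block their edgeR adjusted p-values were 0.0246 and 0.267, so H1f3 was not called there. H1f0, a linker histone gene on chromosome 15 that is not tied to replication, was at 126, 134 and 134 against 116, 121 and 130, a difference of -0.05 (edgeR adjusted p = 0.890). Of the 7 linker histone genes tested all lay below 0, with a median of -0.63, and 5 were lower with the block and 4 under the stricter gate with it.

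Of the genes that act in replication, Pclaf, Tipin and Mcm4 were lower. Pclaf, which binds the replication clamp PCNA, was at 90.2, 82.9 and 80.3 CPM in the low cells, 51.3, 36.4 and 48.4 in the intermediate cells and 43.3, 21.0 and 36.7 in the high cells. Its log2 difference was -1.33 (SE 0.20, edgeR adjusted p = 0.0194), and -0.85 under the stricter gate with the block (adjusted p = 0.000270). Tipin, a fork protection factor, was at 85.6, 79.7 and 76.5 against 50.3, 44.9 and 56.3 (-0.63, SE 0.13, edgeR adjusted p = 0.0431). Mcm4, a subunit of the replicative helicase, was at 87.3, 63.7 and 75.6 against 48.0, 40.8 and 39.5 (-0.77, SE 0.14, edgeR adjusted p = 0.0269), but had an adjusted p of 0.0808 under the stricter gate with the block.

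The S phase list as a whole held 30 tested genes, of which 3 lay above 0, with a median of -0.25. Mcm4 alone passed without the block. With it 5 were lower and 1, Tyms, was higher, and under the stricter gate none passed in the blocked edgeR fit and the median was -0.10. The 30 tested genes of the G2 and M phase list lay mostly on the other side of 0, with 23 above it and a median of 0.15. Of these, none passed without the block and 6 were higher with it, among them the mitotic kinase gene Cdk1 (log2 difference 0.43, edgeR adjusted p = 0.00620) and the ubiquitin-conjugating enzyme gene Ube2c (0.37, adjusted p = 0.00132). This list had 3 genes higher and a median of 0.09 under the stricter gate with the block, with Cdk1 at 0.27 (edgeR adjusted p = 0.131) and Ube2c at 0.25 (0.0333). The phase of single cells was not called.

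Golga3, a golgin gene of the Golgi apparatus, was at 82.7, 87.2 and 89.2 CPM against 39.2, 30.1 and 50.5. Its intermediate values of 55.1, 43.1 and 55.4 lay in between. The log2 difference of -1.08 (SE 0.17, edgeR adjusted p = 0.0205) was -0.91 under the stricter gate with the block (adjusted p = 3.69e-06). Marcksl1, an actin- and membrane-binding protein gene, was at 103, 70.4 and 82.0 against 38.0, 45.8 and 39.5 (-0.97, SE 0.15, edgeR adjusted p = 0.0208; stricter gate with the block -0.59, adjusted p = 0.00822). Outside the gate Golga3 was at 70.1, 68.7 and 68.4, below its low-cell level, while Marcksl1 was at 198, 150 and 120.

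**Figure D5:**
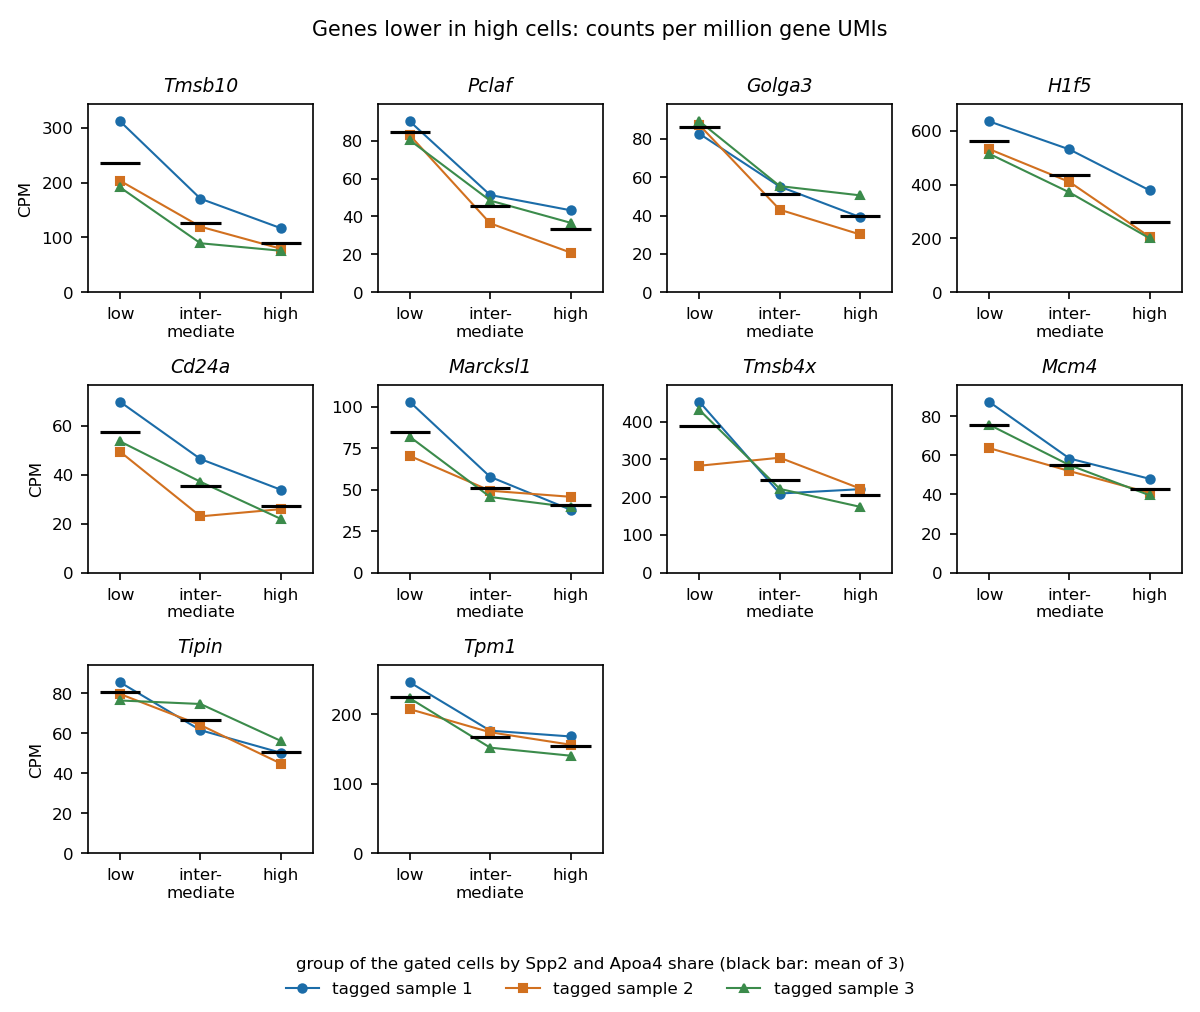
CPM (y axis, from 0) of the 10 lower named genes in the low, intermediate and high cells of the ranking (x axis); each line is 1 tagged sample and black bars are means of 3. H1f5 falls from 634, 532 and 514 in the low cells to 378, 205 and 200 in the high cells. For each gene the 3 high-cell values lie below the 3 low-cell values. The rule that named these genes required a fall in every tagged sample, so this is a description only.

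The other lower named genes encode cytoskeletal and surface proteins and were not called under the stricter gate. Tmsb10, which sequesters actin monomers, was at 312, 204 and 191 CPM against 117, 79.5 and 75.8 (log2 difference -1.34, SE 0.18, edgeR adjusted p = 0.00803). Outside the gate it was far higher, at 878, 769 and 656, and under the stricter gate with the block its difference was -0.31 (edgeR adjusted p = 0.133). In the median cell the groups were close, at 69.5, 104 and 83.0 against 83.4, 72.0 and 72.6. Its relative Tmsb4x (-0.86), the adhesion protein gene Cd24a (-1.04) and the tropomyosin gene Tpm1 (-0.49) passed without the block and had adjusted p-values of 0.696, 0.162 and 0.165 under the stricter gate with it. Together with Mcm4, 5 of the 10 lower named genes lost their call there.

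The lower genes with the largest differences rested on few counts. Sox4, a transcription factor of progenitor cells chosen after its values were seen, had 23, 45 and 15 counts in the low cells and 4, 4 and 1 in the high cells. These are 13.4, 16.0 and 6.34 CPM against 2.34, 1.18 and 0.408 (log2 difference -3.21, edgeR adjusted p = 0.0208), beside 23.8, 19.7 and 13.6 outside the gate. Basp1 and Marcks, membrane-bound proteins of the cell cortex, had -3.19 and -2.25 (edgeR adjusted p = 0.0230 and 0.0281). Their median over cells, and that of Sox4, was 0 in the low and the high cells of every tagged sample. Marcks had more counts than cells in each low group, at 115, 70 and 69, so a minority of low cells carried them. Sox4 had fewer counts than cells in every group, so its median does not show how its counts were spread. The imprinted genes Nnat and Ndn had -2.13 and -3.11 (edgeR adjusted p = 0.0253 and 0.0424), and neither passed the low-count filter of the stricter gate. Ndn had 1, 4 and 1 counts in the high cells. Sox4, Basp1, Marcks, Nnat, Ndn and Slc16a3 passed the low-count filter through their low-cell counts, so the size of their differences is a description only. Of 23 tested imprinted genes 3 were lower and none higher without the block, and with it 4 were higher and 5 lower. Of 18 tested under the stricter gate with the block, 3 were higher and none lower in edgeR, with a median of 0.10.

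Markers of erythroid cells and extraembryonic mesoderm were also lower in high cells, but those of other cell types were not all so. Trophoblast markers, given further below, went the other way, and 9 tested parietal endoderm markers had a median of 0.003. Of 11 tested erythroid markers all lay below 0 with a median of -0.72; none passed without the block and 7 were lower with it, and under the stricter gate none passed and the median was -0.11. Globin transcripts are limited by the gate, and Hba-a1 and Hba-a2 are near-identical copies between which reads may be split. The 6 tested extraembryonic mesoderm markers had a median of -1.26, with 0 called without and 4 lower with the block, and 0 under the stricter gate. Hand1, a transcription factor of this mesoderm chosen after its values were seen, was at 24.4, 6.40 and 13.5 CPM in the low cells and 5.85, 1.18 and 2.45 in the high cells, against 87.8, 56.1 and 56.3 outside the gate. It had 42, 18 and 32 counts in the low cells and 10, 4 and 6 in the high cells, so the size of its difference is a description only. What part these transcripts have in the counts of lower genes was not tested beyond the values under the stricter gate.

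Of 22 tested transcription factors of the endoderm none passed without the block, with a median of 0.02. With it Cebpb was higher and Tfec lower, which is 1 of 22 each way beside 4.91% and 3.07% of all genes, and under the stricter gate with the block none passed in edgeR. Hnf4a, a nuclear receptor that controls many liver genes, had a log2 difference of 0.28 (edgeR adjusted p = 0.443), Foxa2 one of -0.09 (0.872) and Gata4 one of -0.30 (0.425). Intraflagellar transport and Sp factor genes, the subject of the series title, had a median of 0.10 over 16 tested genes and none called with or without the block. Of the 15 visceral endoderm markers 14 lay above 0 with a median of 0.43, and 4 were higher without the block: Amn, Apoa1, Apom and Fmr1nb. That list holds the 3 gate genes.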

How the data were processed

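Raw UMI counts for each gene and cell were deposited, made with Cell Ranger 6.1.2 per the file headers, on GRCm38 (mm10) per the submitters' processing notes. The authors' annotation and tag assignment were not given in the sources used here. The gene expression and tag libraries are 2 GEO samples of 1 pool, and the 3 matrices served as replicates.

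Cells were gated and ranked as described, and raw counts were summed per matrix and group. Of the gated cells, 4, 8 and 5 were doublet calls and were kept in the main fit. Spp2 and Apoa4 were removed before scaling, and CPM of other genes are per gene count without them. The sums were fitted with edgeR 4.0.16 (trimmed mean scaling, filterByExpr, glmQLFit and glmQLFTest, two-sided) in R 4.3.3, adjusted over all 8806 genes tested; differences are log2 values from this fit. High and low cells of 1 matrix come from the same tagged sample, which pairs the sums: their deviations from the group means correlated across genes by 0.336, 0.239 and 0.208. The fit without a replicate block was the main one and the block an alternative. Tested on simulated data with 200 of 8673 genes changed by a log2 value of 1, the fit recovered 94% with 6 false calls. The simulated sums had no tagged-sample effect, and genes of a few CPM were not among those changed. The recovery therefore does not describe the unblocked fit on these paired sums, nor smaller differences.

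Named genes were S100g, Slc2a3 and Nrk, up to 12 genes in each direction with the largest differences among called genes at 50 CPM or more with 1 direction in all 3 matrices (12 higher, 10 lower), and the 2 called genes of smallest p in each of the gene lists. Other genes in the text were chosen after their values were seen. Gate, ribosomal, unnamed and sex-linked genes were kept out of the ranked sets. The cells, markers and 36 lists were chosen with earlier results of these data known. Lists are described by counts and medians, without a test. Gene positions are from GENCODE, promoters from RefSeq. DESeq2 1.42.0, other scalings, filters, rankings, gates (with doublet calls by Scrublet in scanpy 1.11.5), thinned counts and left-out samples were the alternatives. The tag rows were not used here.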

Additional observations from a re-analysis of the deposited data

How the results depend on the processing

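Counts of genes higher and lower (38 and 33) stayed within 1.5 times with DESeq2, median-ratio or library-size scaling, both ranking genes kept in the scaling, sums thinned to the smallest, cells under 20000 counts left out, or the intermediate sums in the fit. The replicate block gave 432 and 270, no low-count filter 238 and 199, groups of 1 cell in 4 from each end of the ranking 120 and 86, cells thinned to 20000 counts 18 and 7 (185 and 95 with the block), no doublet calls 10 and 9, and globins under 1% 8 and 5. Ranking by Apoa4 alone gave 2 and 2. By edgeR, ranking by Spp2 alone and a split of the ranking at its middle gave 0 and 0, with 401 and 330, and 462 and 427, genes at an unadjusted p under 0.05. Ttr, Apob and Apom at 1% or more gave 1 and 1 (171 and 81 with the block), and the stricter gate 4 and 1 (187 and 65). Leaving out 1 tagged sample gave 0 to 189 higher and 0 to 108 lower genes, and with the block 466, 341 and 114 higher and 322, 222 and 82 lower without tagged samples 1, 2 and 3. The 1% limit, the stricter gate, the removal of cells under 20000 counts, and the block together with any other setting were chosen after seeing the data. Slc2a3 turned to a log2 difference of -0.0209 under the stricter gate, and to -0.0253 with the block. No other gene named by the rule changed direction in the settings that tested it; Ndn, Nnat and Slc16a3 did not pass the low-count filter in some of the 27. The cause of these shifts was not tested, beyond the smaller numbers of cells and samples that some settings leave. With 3 sums a side, the number of tagged samples limits precision, and genes of a few CPM are limited by counts.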

Other observations

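Transcripts shared with trophoblast cells were also higher in high cells once the tagged sample was used as a replicate block. Of 15 trophoblast markers 6 were tested and all 6 differences lay above 0, with a median log2 difference of 0.46, and none passed the unblocked edgeR test. With the block 4 were higher, and 4 under the stricter gate with it. Krt7, a keratin of simple epithelia, was at 2.91, 14.9 and 16.5 CPM in the low cells and 8.77, 26.3 and 26.1 in the high cells, low in tagged sample 1 in both groups (log2 difference 0.86; in the blocked edgeR fit the adjusted p was 0.00793). Phlda2, an imprinted regulator of placental growth, was at 515, 873 and 874 against 667, 1047 and 979 (0.30; blocked edgeR fit, adjusted p = 0.000468). Peg10, an imprinted gene derived from a retrotransposon, was at 250, 364 and 408 against 484, 381 and 506, with most of its gap in tagged sample 1.

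The X-linked genes Trap1a and Rhox5, which are known for high expression in extraembryonic tissue, passed the unblocked test, and both were looked at after their values were seen. Trap1a was at 331, 423 and 386 CPM in the low cells and 578, 581 and 516 in the high cells (log2 difference 0.60, edgeR adjusted p = 0.0228). Rhox5 was at 790, 891 and 803 against 1056, 1159 and 1094 (0.46, edgeR adjusted p = 0.0236). Cells with Xist made up 56%, 70.6% and 38.1% of the called low cells and 34.6%, 73.7% and 50% of the called high cells, so the tagged samples did not share a direction.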
